A study of Homo sapiens with 32 samples.

Results

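The genes described here encode subunits and assembly factors of respiratory complexes II to V, and cytochrome c. They were chosen by symbol: GENCODE 44 protein-coding genes on chromosomes 1 to 22 and X whose symbol starts with SDHA, SDHB, SDHC, SDHD, UQCR, UQCC, ATP5 or COX plus a digit, together with CYC1 and CYCS. This gave 71 of 19970 protein-coding genes. The symbol rule also took in copies and isoforms of restricted tissues, such as UQCRHL, ATP5MGL and COX8C, and a readthrough, ATP5MF-PTCD1, that shares its start with ATP5MF.

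The study used chromatin immunoprecipitation with sequencing (ChIP-seq), which locates a protein on DNA, in HEK293T cells, a human embryonic kidney line. Every group came from 1 clone, ZD29, in which ZNF143 carries an inducible degron tag, so the controls carry the tag as well. Cells were left untreated or given 50 nM of the degrader dTAGV-1 for 30 min. The 32 samples formed 10 groups: SP1, NRF1 and YY1 precipitations with 4 untreated and 4 treated samples each, and ZNF143 (through its HA tag) and mock precipitations with 2 and 2.

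The data came as 4 deposited files of peak summits, each for a single antibody, and a summit is the 1-bp position where a peak is highest. Samples and treatments have no values of their own in these files, so treated and untreated cells were not compared, no spread between replicates could be given, and read depth is unknown. Summits carry no expression values, so the identity of the cells was not checked against marker genes. On chromosomes 1 to 22 and X they held 16165 ZNF143, 126181 SP1, 39180 NRF1 and 106578 YY1 summits. Each summit has a deposited score, on the −log10 scale, of its significance (whether as p or as q is not stated), and scores were compared only within a list. A summit is called strong below where its score was in the top 10% of its list, and this range began at a ZNF143 score of 1681, an SP1 score of 229.4, an NRF1 score of 353.9 and a YY1 score of 142.2. Offsets count from the outermost annotated 5′ end of the gene on hg38, negative values lying upstream, and the highest-scoring summit within 500 bp stands for each gene and list.

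Complex II, or succinate dehydrogenase, passes electrons from succinate to ubiquinone, complex III passes them on to cytochrome c, complex IV passes them to oxygen, and complex V uses the proton gradient built on the way to make ATP. Nearly all of these proteins are encoded in the nucleus and imported into mitochondria. NRF1, nuclear respiratory factor 1, is known for binding GC-rich sites in the promoters of many respiratory genes, cytochrome c among them. SP1 is a zinc-finger activator of GC-box promoters, YY1 a zinc-finger factor that often sits close to start sites, and ZNF143 a zinc-finger activator of small RNA genes and of many protein-coding promoters.

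Most of the 71 genes had summits of several factors at their 5′ end. A ZNF143 summit lay within 500 bp at 46 genes (64.8%, Wilson 95% interval 53.2 to 74.9), against 31.7% of all protein-coding genes. SP1 summits were found at 60 genes (84.5%, interval 74.3 to 91.1), against 59.1%. NRF1 summits were found at 56 genes (78.9%, interval 68.0 to 86.8), against 48.3%. YY1 summits were also found at 56 genes, against 57.8%. All 4 factors met at 44 genes (62.0%, interval 50.3 to 72.4), against 28.1%, and 10 genes (14.1%) had no summit of any list, against 37.3%. Genes are not replicates, no test was made, and the intervals cover counting error only.

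The remaining genes fell into few patterns. SP1, NRF1 and YY1 without ZNF143 was the pattern of 10 genes. SP1 alone was found at UQCC3, UQCRC1 and COX6B2. ATP5PB had SP1 and NRF1, COX7A2L had SP1 and YY1, ATP5PF had ZNF143 and NRF1, and COX16 had ZNF143, SP1 and YY1.

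**Figure D1:**
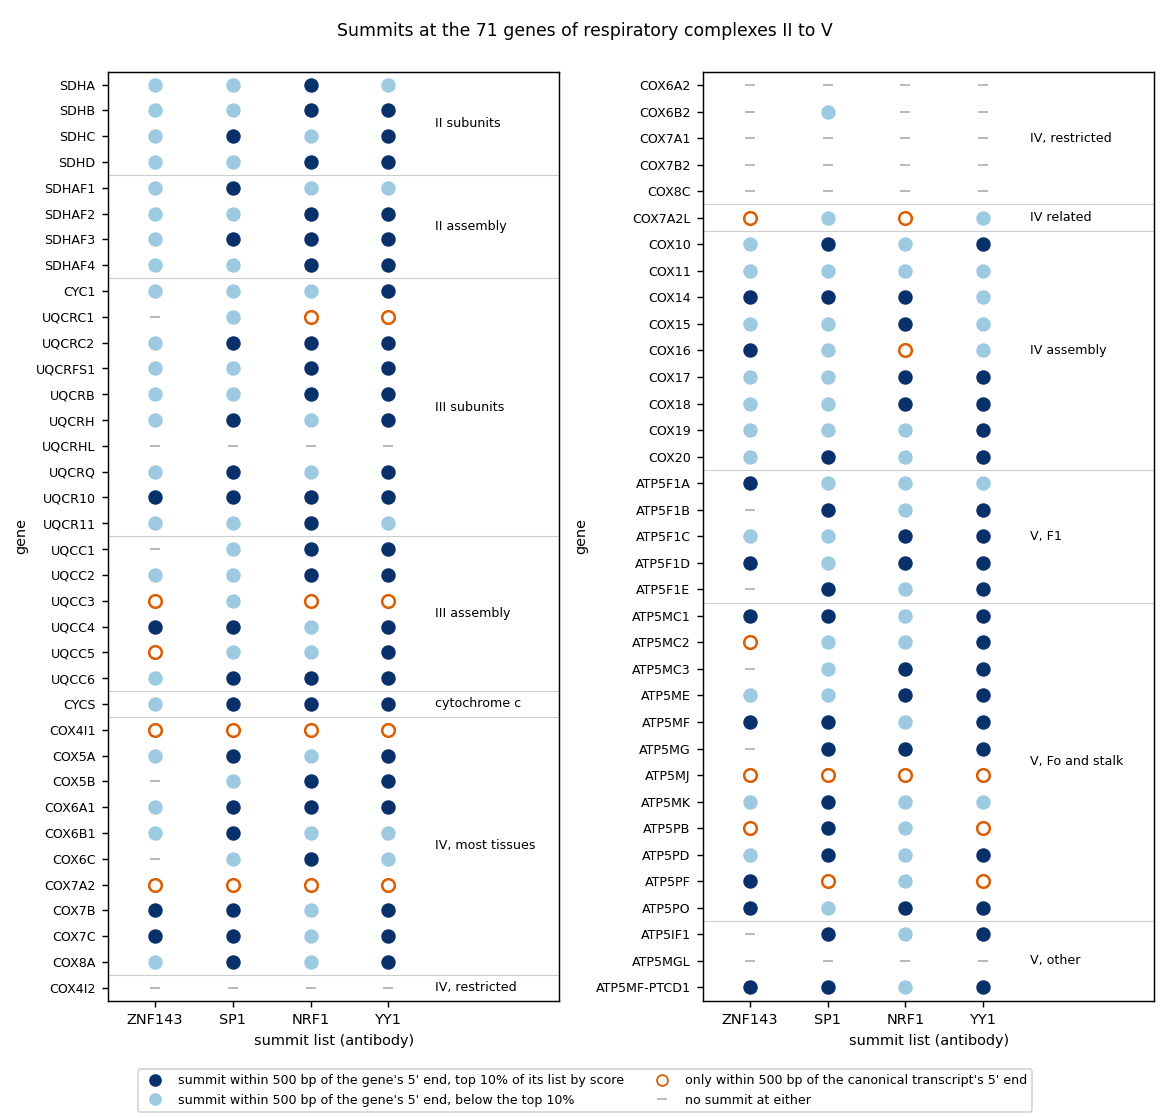
Each row is a gene, grouped by complex, and each column an antibody. Dark circles mark a strong summit within 500 bp of the gene's 5′ end, light circles a weaker one, open circles a summit only at the canonical transcript's 5′ end and dashes none at either. The complex II rows are filled in every column, and the rows of the restricted complex IV isoforms are empty apart from an SP1 summit at COX6B2.

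Counts of strong summits were more unequal among the factors, but they cannot rank the factors. The strong range is a fixed share of each list, and the lists ran from 16165 ZNF143 to 126181 SP1 summits. A longer list therefore held more strong summits. Within each list the share of these genes was above that of all genes. YY1 was strong at 44 genes (62.0%, against 28.5% of all genes), SP1 at 29 (40.8%, against 26.7%), NRF1 at 28 (39.4%, against 15.1%) and ZNF143 at 13 (18.3%, against 6.47%). Among genes with a summit, the median ZNF143 score was 84.4 (all genes 23.6) and the median SP1 score 227 (all genes 197). The median NRF1 score was 349 (all genes 48.0) and the median YY1 score 636 (all genes 139). By ratio, the SP1 medians were the nearest to each other. UQCR10, a small subunit of complex III, was the 1 gene with strong summits in all 4 lists, and 15 genes had strong summits in none.

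The outermost 5′ end is not always the one in common use, and 15 of the genes have an Ensembl canonical transcript that starts more than 250 bp from it. Counted from the canonical 5′ end, ZNF143 summits were found at 54 genes (34.8% of all genes), SP1 at 64 (64.5%), NRF1 at 63 (52.8%) and YY1 at 63 (63.1%). All 4 factors met at 54 genes (76.1%, against 31.6% of all genes), and 7 genes (9.86%) had none, against 33.2%. There ZNF143 was strong at 12 genes (7.02% of all genes), SP1 at 36 (30.1%), NRF1 at 33 (16.8%) and YY1 at 53 (31.7%). No list had a strong summit at 9 of the 71 genes, against 10786 of all 19970 genes. The 7 genes without a summit of any list were UQCRHL, ATP5MGL and 5 of the 6 restricted complex IV isoforms. The other isoform, COX6B2, had SP1 alone.

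The sequences under the highest-scoring summits carried the factors' known motifs to different extents, and the printed examples are the windows with the highest scores in which a motif was found. Motifs were searched on both strands without mismatches, wholly within 50 bp of the summit, as GCGCANGC for NRF1, GGGCGG for SP1, AANATGGCG for YY1 and CCCANNATG for ZNF143. The ZNF143 site is longer than this, and its left part, searched as CTACANNTC, ends on the C with which CCCANNATG begins, so the letters overlap by that base. This left part was added after the sequences had been seen. Sequences are from hg38, read 5′ to 3′ on the strand of the gene, with the motif in capitals.

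The NRF1 summits of COX6A1 (chr12:120437879-120437939, plus strand), SDHA (chr5:218190-218250, plus strand) and ATP5PO (chr21:33915808-33915837, minus strand, beside the summit) are shown because they had the 3 highest NRF1 scores of the genes.
COX6A1: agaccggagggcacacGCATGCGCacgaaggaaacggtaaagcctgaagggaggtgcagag
SDHA: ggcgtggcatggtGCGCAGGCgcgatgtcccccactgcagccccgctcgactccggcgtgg
ATP5PO: cgccaacgcgcGCGTGCGCccttgcgcgtt

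The YY1 windows of UQCRH (chr1:46303353-46303413, plus strand) and COX10 (chr17:14069521-14069550, plus strand, beside the summit) hold the motif in opposite orientations. The first window lies upstream of UQCRH, past the start of its neighbour LRRC41, and the second in the untranslated first exon of COX10.
UQCRH: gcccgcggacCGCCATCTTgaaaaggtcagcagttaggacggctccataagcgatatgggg
COX10: gcggggaaggAAGATGGCGgcgcccagcgt

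For ZNF143, ATP5MC1 (chr17:48892398-48892458, plus strand) is the single gene with CCCANNATG at its summit. ATP5PO (chr21:33915848-33915908, minus strand), COX7C (chr5:86617834-86617894, plus strand), UQCC4 (chr16:1420910-1420939, minus strand, beside the summit) and COX7B (chrX:77899342-77899402, plus strand) show the left part of the site.
ATP5MC1: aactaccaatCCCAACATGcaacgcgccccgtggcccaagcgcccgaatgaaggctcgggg
ATP5PO: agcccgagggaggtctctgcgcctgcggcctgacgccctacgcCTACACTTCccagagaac
COX7C: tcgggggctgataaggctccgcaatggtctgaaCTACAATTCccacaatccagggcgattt
UQCC4: gggacggagaaCTACATTTCccggcatgcc
COX7B: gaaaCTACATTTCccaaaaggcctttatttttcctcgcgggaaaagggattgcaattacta

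The NRF1 motif and the NRF1 score went together at these genes. The motif lay at 28 of 56 NRF1 summits (50.0%), against 29.9% over all genes with an NRF1 summit and 11.7% of all NRF1 summits. It lay at 27 of the 28 strong NRF1 summits (96.4%, against 73.5% of the strong summits of all genes) and at 1 of the 28 weaker ones (3.57%, against 10.2%). COX15, which makes heme A for complex IV, was the strong one without it, and COX6B1, a complex IV subunit, was the weaker one with it. The motif copy nearest the summit read on the strand of the gene at 9 of these 28 summits and on the other strand at 19. Over all genes 50.1% read on the strand of the gene. Many of these summits held more than 1 copy, such as COX17 and COX18 with 3 each, and the difference was not tested.

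The other motifs were also searched at their own factor's summits. The YY1 motif lay at 8 of 56 YY1 summits (14.3%, against 6.56% of genes with a YY1 summit), and all 8 were strong summits. The SP1 motif lay at 24 of 60 SP1 summits (40.0%, against 43.4%), and within 100 bp at 32 (53.3%, against 63.8%). CCCANNATG lay at 1 of 46 ZNF143 summits (2.17%, against 5.39%), and CTACANNTC lay at 5 (10.9%, against 9.68%). All 5 were among the 13 strong ZNF143 summits (38.5%, against 42.6% of the strong summits of all genes), and 0 of the 33 weaker ones held it (1.23% over all genes).

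Promoters gave a like picture without reference to summits. RefSeq promoter sequences (GRCh38.p14, 250 bases before to 50 after the start) were matched for 56 of the 71 genes. GCGCANGC was found in 29 (51.8%), against 16.9% of all 15316 promoters in the table. AANATGGCG was found in 10 (17.9%, against 4.92%), GGGCGG in 33 (58.9%, against 59.2%), CCCANNATG in 1 (1.79%, against 4.51%) and CTACANNTC in 5 (8.93%, against 4.61%). CCGGAAG, a core of the sites of ETS factors such as GABP, which is also known as nuclear respiratory factor 2, was found in 20 (35.7%, against 14.4%). A match is a description of the sequence and shows no binding.

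Summit positions differed by factor. The median offset of the ZNF143 summits was −52 bp (interval of the median −93 to 12), that of SP1 −59 bp (−75 to −21) and that of NRF1 −41 bp (−85 to −24). YY1 lay downstream, with a median of 60.5 bp (30 to 73). Over all genes with a summit the medians were −19, −38, −29 and 60 bp in the same order. YY1 summits fell between 20 and 120 bp downstream at 26 of 56 genes (46.4%), and at 2538 of the 11546 protein-coding genes with a YY1 summit. Upstream of the gene lay 20 of 56 YY1 summits (35.7%, against 38.3% over all genes) and 29 of 46 ZNF143 summits (63.0%, against 55.9%). The same held for 45 of 60 SP1 summits (75.0%, against 63.2%) and 41 of 56 NRF1 summits (73.2%, against 59.7%).

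**Figure D2:**
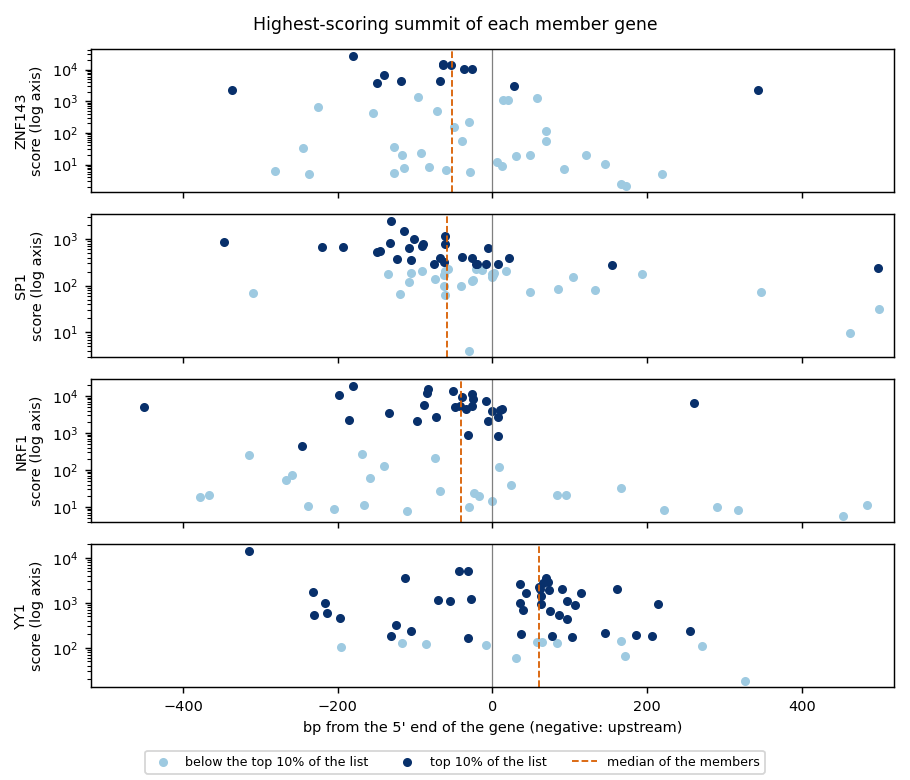
Each point is the highest-scoring summit of a gene, by its distance in bp from the gene's 5′ end (horizontal) and its score on a log axis (vertical), with a panel for each antibody. Dark points are in the top 10% of their list, and the dashed line is the median offset. The YY1 median, 60.5 bp, lies downstream of the start, and those of the other factors lie 41 to 59 bp upstream of it, as negative values on the axis.

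All 8 genes of complex II had summits of all 4 factors. NRF1 was strong at 6 of them, YY1 at 6, SP1 at 3 and ZNF143 at 0. SDHA, the flavoprotein that oxidises succinate, had the second-highest NRF1 score of all 71 genes, 15401.3, at −83 bp (chromosome 5, position 218220). Its ZNF143 score was 113.268 in a coding exon, its SP1 score 68.8961 and its YY1 score 138.627, all below the strong range. The 31 bases at the YY1 summit of SDHA occur at 2 places in the genome.

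The other succinate dehydrogenase subunits were not all alike. SDHB, the iron-sulfur subunit, had strong NRF1 (2221.1 at −186 bp) and YY1 (999.05 at 36 bp) summits. SDHD, a membrane anchor, also had strong NRF1 (4943.23 at −49 bp) and YY1 (1148.63 at −70 bp) summits. SDHC, the other anchor, had an NRF1 score of only 14.692, but strong SP1 (291.32 at −21 bp) and YY1 (2263.4 at 60 bp) summits. Thus 3 of the 4 subunits had strong NRF1 summits and SDHC did not. Among the assembly factors NRF1 was strong at SDHAF2 (799.791), SDHAF3 (5372.41) and SDHAF4 (3918.06), and SDHAF1, which helps insert iron-sulfur clusters into SDHB, had 31.7036.

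Of the 16 complex III genes, 11 had ZNF143, 15 SP1, 13 NRF1 and 13 YY1 summits. UQCR10 had the highest ZNF143 score of the 71 genes, 26923.4 at −181 bp (chromosome 22, position 29767188), within the top 0.303% of the list. Its NRF1 score was 11437.7 at −27 bp, its SP1 score 658.317 at −193 bp and its YY1 score 2600.78 at 35 bp. The ZNF143 and SP1 summits of UQCR10 were thus close together and the NRF1 summit lay nearer the start. CTACANNTC was found in its promoter, but not within 50 bp of its ZNF143 summit. UQCRH, the hinge protein that helps cytochrome c dock, had the highest YY1 score, 14415.1 at −315 bp, within the top 0.0310% of the list. It lies head to head with LRRC41, whose start is 82 bp upstream of that of UQCRH. The YY1 summit thus lies past the LRRC41 start, on the side of LRRC41, and cannot be assigned to UQCRH by position.

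CYC1, the cytochrome c1 subunit, had YY1 as its strong factor (1620.99 at 114 bp). Its ZNF143 score, 1296.34 at 57 bp, and its SP1 score, 227.076 at −21 bp, were just below the strong range, and its NRF1 score was 24.0841. UQCC1, an assembly factor for cytochrome b, had no ZNF143 summit and had strong NRF1 (5150.03 at −27 bp) and YY1 (2947.54 at 72 bp) summits. Strong summits far from the start were found at UQCC2, with NRF1 at 261 bp (6304.56), and at UQCC6, with NRF1 at −451 bp (4976.21). The start of TDG lies 114 bp from the outermost start of UQCC6, and the canonical start of UQCC6 is 8493 bp downstream, where its NRF1 score was 122.442 and its SP1 score 1024.38.

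UQCC3 and UQCRC1 each had an SP1 summit alone at the outermost start, with scores of 4.01519 at −30 bp and 9.66694 at 462 bp. Both belong to the genes whose canonical start lies elsewhere. At the canonical start of UQCRC1, a core subunit, 1330 bp downstream, NRF1 scored 8017.01 and YY1 1905.39, both strong. At that of UQCC3, 1400 bp downstream, all 4 factors had summits, with SP1 at 260.585 and YY1 at 368.329 being strong. UQCRHL, a copy related to UQCRH, had no summit at either start. At UQCRFS1, the Rieske iron-sulfur protein, the 31 bases at the YY1 and ZNF143 summits occur at 2 places in the genome.

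CYCS encodes cytochrome c, the carrier between complexes III and IV. Its NRF1 score was 10235 at −198 bp, within the top 0.985% of the list. Its SP1 score, 1491.18 at −115 bp, was the second highest of the 71 genes. YY1 was strong as well (179.94 at −131 bp), and ZNF143 was not (641.665 at −226 bp). All 4 summits of CYCS lay upstream of the gene.

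Of the 26 complex IV genes, 15 had ZNF143, 19 SP1, 16 NRF1 and 18 YY1 summits, and their 9 assembly factors had 9, 9, 8 and 9. COX6A1, a subunit near the dimer interface, had the highest NRF1 score of the 71 genes, 18598.3 at −181 bp (chromosome 12, position 120437909), with a ZNF143 score of 18.9066 at 30 bp. COX7C, a small subunit, was the reverse, with a ZNF143 score of 13703.6 at −64 bp (chromosome 5, position 86617864) and an NRF1 score of 122.12 at 9 bp. These genes thus ranked high for different factors. COX5A, which binds the regulatory subunit COX4, had an SP1 score of 1022.48 at −101 bp.

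COX5B, the zinc-binding subunit, had strong NRF1 (3479.83 at −134 bp) and YY1 (184.924 at 77 bp) summits and no ZNF143 summit. COX6C also lacked ZNF143 and had a strong NRF1 summit (4228.67 at 10 bp). COX4I1, the broadly expressed form of COX4, and COX7A2 had none at their outermost starts. All 4 factors had summits at their canonical starts, 1062 and 6522 bp downstream. At COX4I1 only YY1 was strong (201.453 at −32 bp), and ZNF143 scored 955.247, SP1 145.755 and NRF1 8.76671. At COX7A2 the YY1 score was 1320.69 and the SP1 score 276.642, both strong.

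The isoforms of restricted tissues, COX4I2, COX6A2, COX6B2, COX7A1, COX7B2 and COX8C, are known mainly from lung, muscle, heart or testis. COX4I2, COX6A2, COX7A1, COX7B2 and COX8C had no summit, and their outermost and canonical starts are the same or, at COX7A1, 2 bp apart. COX6B2 had an SP1 summit with a score of 30.9947 exactly 500 bp downstream, on the limit of the window. The expression of these genes was not measured here.

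Among the complex IV assembly factors, COX10, which makes heme O, had a YY1 score of 3505.4 at 69 bp. COX20, a chaperone of COX2, had a YY1 score of 3669.37 at −113 bp and a strong SP1 summit further out, 875.729 at −348 bp. COX16 had a strong ZNF143 summit, 4284.07 at −119 bp, at its outermost start. That start lies beside the start of SYNJ2BP, which is 106 bp upstream, and head to head with ADAM21, whose start is 123 bp upstream. The summit therefore cannot be assigned to any of these genes by position. At the canonical start of COX16, 57301 bp downstream, the ZNF143 score was 245.741.

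Of the 20 complex V genes, 11 had ZNF143, 17 SP1, 18 NRF1 and 16 YY1 summits, and ZNF143 was strong at 7. ATP5PO, the stalk subunit OSCP, had both ZNF143 (14571.3 at −64 bp) and NRF1 (13696.5 at −51 bp) among the highest scores, 13 bp apart on chromosome 21. ATP5F1D, the delta subunit of the rotor, had a ZNF143 score of 13723.5 at −54 bp and an NRF1 score of 853.141. ATP5MF, a membrane subunit, had a ZNF143 score of 10107.4 at −37 bp and a YY1 score of 5042.21 at −43 bp. ATP5MF-PTCD1 starts 11 bp away and has the same summits, so these count for 2 genes.

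The alpha and beta subunits form the catalytic core. ATP5F1B, the beta subunit, had no ZNF143 summit and had the highest SP1 score of the 71 genes, 2442.11 at −131 bp (chromosome 12, position 56646115), with an NRF1 score of 20.5288. ATP5F1A, the alpha subunit, had a strong ZNF143 summit, 2926.28 at 28 bp, at an outermost start that lies head to head with HAUS1, 44 bp away. At its canonical start, 6038 bp downstream, the ZNF143 score was 24.5163 and the YY1 score 2123.94. The ZNF143 value of ATP5F1A thus depends on which start is used.

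In the membrane part and the stalk, ATP5ME had an NRF1 score of 12025.9 at −85 bp and ATP5PD an SP1 score of 1152.32 at −62 bp. ATP5MC1, which encodes subunit c of the rotor ring, had its strong ZNF143 summit at −337 bp (2298.44). ATP5MG had its strong YY1 summit at 256 bp (238.27), and its canonical start is 260 bp downstream. ATP5MJ had no summit at its outermost start. At its canonical start, 6740 bp downstream, all 4 factors had summits and ZNF143 (4077.31), NRF1 (4146.57) and YY1 (220.602) were strong. ATP5MGL, a copy related to ATP5MG, had none at its start, which is also its canonical start.

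ATP5PF and ATP5PB also had outermost starts away from the canonical ones. ATP5PF had a strong ZNF143 summit at 344 bp (2279.49), and ATP5PB a strong SP1 summit at 499 bp (240.029), on the edge of the window. From the canonical start of ATP5PF, 769 bp downstream, ZNF143 (2542.07), SP1 (373.174), NRF1 (1282.64) and YY1 (2508.72) were all strong. This start lies 68 bp from that of GABPA, which encodes the DNA-binding subunit of the ETS factor GABP. From the canonical start of ATP5PB, 600 bp downstream, YY1 scored 2701.19 at −19 bp and ZNF143 15.0342.

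Measured at the outermost starts, the scores of ZNF143 and NRF1 did not rise together. Over the 45 genes with both summits Spearman's rho was −0.226 (0.0576 over the 5729 genes with both). Among these 45, both summits were strong at 4 genes, ZNF143 alone at 8, NRF1 alone at 19 and neither at 14. Over the 5729 genes with both summits the same counts were 435, 788, 1517 and 2989. The 4 genes with both strong were UQCR10, ATP5PO, ATP5F1D and COX14. This split depends on the start used. From the canonical start ATP5MJ and ATP5PF also had strong summits of both, and the ZNF143 summit of ATP5F1A was not strong. ATP5MF and ATP5MF-PTCD1, both with ZNF143 alone strong, share the same summits. SP1 and NRF1 gave rho −0.31 over 55 genes (0.0842 over all genes), and ZNF143 and SP1 gave 0.264 over 45 (0.0927). SP1 and YY1 gave 0.269 over 56 genes, against 0.524 over all genes. These are descriptions across genes, which are not independent, and the scores of each list share their libraries. The median distance between the summits was 42 bp for ZNF143 and SP1 and 94 bp for ZNF143 and NRF1, against 55.5 and 111 bp over all genes.

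**Figure D3:**
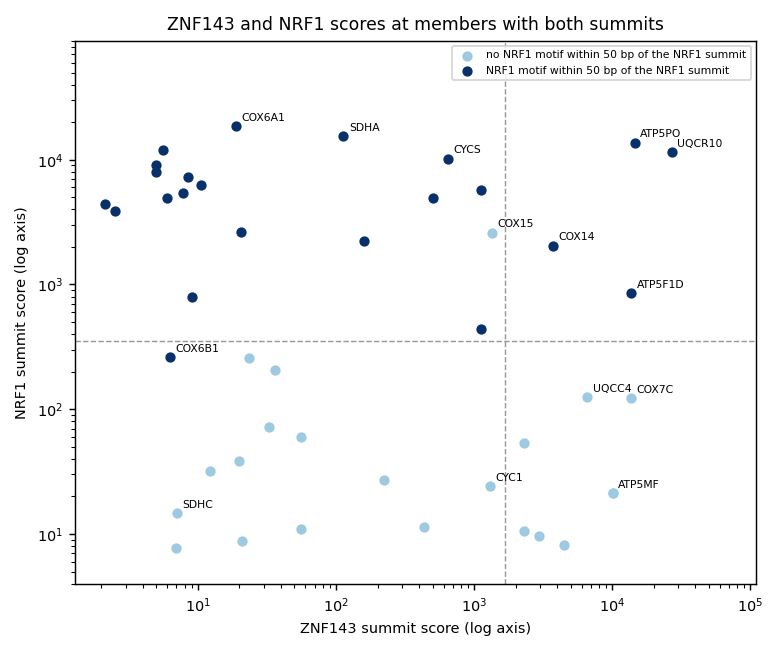
Each of the 45 points is a gene with both summits, by its ZNF143 score (horizontal, log axis) and NRF1 score (vertical, log axis). Dashed lines mark where the top 10% of each list begins, and dark points hold the NRF1 motif within 50 bp of the NRF1 summit. The dark points lie above the horizontal line except COX6B1, and 4 genes lie in the upper right field.

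Other genes of mitochondrial energy production were set beside these. Of 48 complex I genes (symbols starting with NDUF), 34 (70.8%) had ZNF143, 44 (91.7%) SP1, 37 (77.1%) NRF1 and 42 (87.5%) YY1 summits at the outermost start. Of 78 mitochondrial ribosomal protein genes, 60 (76.9%) had ZNF143, 74 (94.9%) SP1, 68 (87.2%) NRF1 and 74 (94.9%) YY1. Of 35 further assembly and biogenesis genes of complexes III to V, such as SURF1 and SCO1, 26 had ZNF143, 31 SP1, 29 NRF1 and 31 YY1. NDUFA4 was counted both among these and, through its symbol, among the complex I genes. All 3 sets thus lay above the genome-wide shares in each list, and no difference from complexes II to V was tested. YY1 was strong at 79.2% of the complex I genes and 83.3% of the ribosomal genes, and NRF1 at 37.5% and 34.6%. For SP1 these shares were 37.5% and 53.8%, and for ZNF143 16.7% and 20.5%. The median YY1 offset was 76 bp for complex I and 41 bp for the ribosomal genes, and that of ZNF143 was 47.5 and −12 bp.

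**Figure D4:**
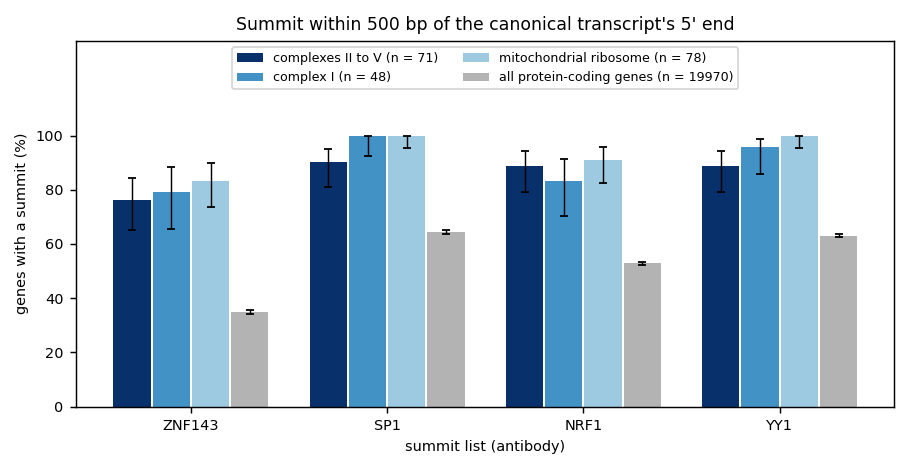
Bars give the percent of genes with a summit within 500 bp of the canonical transcript's 5′ end, by antibody, and error bars are Wilson 95% intervals for counting error. For ZNF143 the bars stand at 76.1% for complexes II to V, 79.2% for complex I, 83.3% for the mitochondrial ribosome and 34.8% for all protein-coding genes.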

How the data were processed

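The 4 deposited summit lists were made by the authors. The submitters' processing notes name cutadapt, Bowtie2, SAMtools 1.16.1, MACS3, bedtools and hg38, with no role or order. Column 5 of the deposited lists is, from its values and layout, a −log10 p-value or q-value, with a lowest value just above 2 in each list. The SP1 and ZNF143 lists belong to their samples per the labels, and the NRF1 and YY1 lists were matched by the antibody in their names.

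Summits on chromosomes 1 to 22 and X were compared with GENCODE 44 and the hg38 sequence in Python 3.11.15 with numpy 2.4.6 and pandas 2.3.3. All summits lay within the chromosome lengths. Offsets were tested on simulated data. No statistical test was made, since the lists hold no replicate values. Shares carry Wilson 95% intervals, and medians carry order-statistic intervals. Alternatives changed the window (250 and 1000 bp), the 5′ end, the score threshold (top 50%), the list length (16165 summits each), the motif distance (100 bp) and the motif letters. They also left out regions that the peak numbering skips and counted overlapping windows once.

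The genes and gene lists were chosen with earlier results of these data known. Named are the 5 highest scores per list, genes with summits in 0 or 1 lists, strong summits over 250 bp from the 5′ end, SDHA, SDHB, SDHC, SDHD, CYCS, CYC1, COX4I1, COX5B, COX6C, COX7C, ATP5F1A and ATP5F1B, and the restricted isoforms. Genes named outside this rule were chosen after their values were seen. Signal tracks and mock samples were not analysed here.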

Additional observations from a re-analysis of the deposited data

How the results depend on the processing

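Of 80 recomputed counts and median offsets, 78 stayed within 1.5 times the count or within the interval of the median. The median SP1 offset was −79 bp from the canonical 5′ end, and the median YY1 offset was 10 bp from the nearest 5′ end of any transcript. With 16165 summits in every list, SP1 was found at 42 genes (59.2%, against 32.6% of all genes) and all 4 factors at 32 (45.1%, against 18.1%). With the top 50% of each list ZNF143 was found at 32 (45.1%, against 19.4%) and all 4 factors at 30 (42.3%, against 16.3%). These lower counts were still within the limit of 1.5 times, which is wide. The regions that the peak numbering skips held 0 of the genes. Motif counts depended on the letters and the distance. With GCGCANGC extended by 1 base on either side, NRF1 matches fell from 28 to 16 summits (28.6%, against 16.4% over all genes) and from 29 to 15 promoters (26.8%, against 8.25%). With a shorter core, YY1 matches were at 16 summits (28.6%, against 20.1%) and 28 promoters (50.0%, against 33.9%). The shorter ZNF143 core was at 6 summits (13.0%, against 9.85%), where the longer letters lay below the share of all genes, and at 7 promoters (12.5%, against 11.6%). Within 100 bp the YY1 motif lay at 17 summits (30.4%, against 10.0%), CCCANNATG at 2 (4.35%, against 7.04%) and the NRF1 motif at 28 (50.0%, against 33.5%). No paired analysis was possible because the lists hold no value per sample. Scores and list lengths depend on read depth, which is unknown here, so a missing summit does not show that a factor is absent.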

Other observations

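Some of the genes share their promoter region with a neighbour. A protein-coding gene on the other strand started within 1000 bp, head to head, at 15 of the 71 canonical starts (21.1%), against 9.49% of all protein-coding genes. SDHD lay 117 bp from TIMM8B, which encodes a mitochondrial import chaperone, SDHA 167 bp from CCDC127, COX4I1 151 bp from EMC8, and UQCR10 362 bp from ZMAT5. COX15 lay 107 bp from CUTC and ATP5ME 266 bp from MYL5. A summit at such a start cannot be assigned to either gene by position.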
